A study of Mus musculus with 18 samples.

Results

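Divided bulge cells of the mouse hair follicle were compared with non-bulge skin cells at postnatal day (PD) 25. The arrays compared were chosen by their titles and numbered 6 of the 18 in the series: 3 of bulge cells that had divided 1 to 2 times during a label chase from PD22 to PD25, and 3 of non-bulge cells from the same 3 mice. All mice were double transgenic, K5tTA x pTRE-H2B-GFP, from FvB and CD1 parents, so the controls carried both transgenes and received the same treatment as the bulge cells. The keratin 5 promoter, active in basal epithelial cells, drove a histone H2B-GFP label that doxycycline, given at 1 g per kg of food, switched off, after which each division diluted the label 2-fold. Skin cells were sorted by their GFP content and by CD34 and α6-integrin at the surface. From each fraction 5 ng of RNA was amplified before hybridisation to an Affymetrix mouse expression array. The gates in numbers, the divisions of the non-bulge cells and the sex of the mice are stated by none of the sources used here, and the labels name the third fraction only as non-bulge. The other 12 arrays held undivided bulge cells at PD25 and the same 3 fractions at PD21, after a chase from PD18, and they served to estimate the spread and to test how a difference varied with division and with age.

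The bulge is the part of the outer root sheath that houses the stem cells of the hair follicle. These cells divide rarely, carry CD34 at their surface and are held in a resting state by bone morphogenetic protein (BMP) signals and by secreted inhibitors of Wnt signalling, while transcription factors such as LHX2, SOX9, TCF7L1 and NFATC1 maintain their identity. Non-bulge keratinocytes include the interfollicular epidermis, the upper follicle and the sebaceous gland, which make keratins, cornified envelope proteins and lipids in their differentiating layers and cytokines that signal to immune cells.

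Signals are the authors' array intensities, and differences are on the log2(signal + 16) scale, in which 1 is a 2-fold difference well above background, and the added 16 makes changes of dim genes look smaller. All differences are divided bulge minus non-bulge within the mouse, with the standard error of a limma fit in which each mouse had its own term, from 3 mice per group. A gene passed at a Benjamini-Hochberg adjusted p below 0.05 over 11569 genes. Counts for a list are over its members bright enough to be tested, which were all 33 bulge genes but 50 of 64 Wnt and 45 of 51 BMP and TGF-beta genes on the array. They stand against 7.58% of all genes higher and 4.76% lower. A gene needed only 3 of the 18 arrays above the array median, so it could enter through the group where it was high. Bulge genes Cd34, Bmp6, Cd200, Igfbp5, Lgr5 and Ltbp2 and fibroblast gene Crabp1 lay above the median on 0 of 3 PD25 non-bulge arrays. Counts of higher genes include such members. The 6 arrays had median signals between 61.8 and 111.8. By the hybridisation control BioB-5, the 18 arrays fell into 2 sets, with signals of 554.2 to 886.1 and of 2124 to 3173, and all arrays of a mouse lay in 1 set, so the mouse term absorbed it. At PD25 mouse 1 lay in the low set and mice 2 and 3 in the high set. The divided bulge array of mouse 1 had the highest Gapdh 3' to 5' signal ratio of the 6, at 11.6 against 3.10 to 9.96 on the other 5, a sign of how complete the amplified RNA was. By the same ratio of Actb it did not stand out, at 1.115 against 0.967 to 1.216 on the other 5. In content it did differ. The median difference of 6 hair shaft and inner root sheath genes was 1.94, -1.43 and 0.87 in mice 1, 2 and 3. On the third principal component of the 18 arrays, with 5.9% of the variance, the divided array of mouse 1 stood at 55.4, against 1.9 to 28.6 on the other 5. The counts of the lists described here are given without this array, or without another of the 6 arrays, where they then moved by over 1.5 times. Nothing in the labels says how the mice were related. Since each mouse had its own term, p-values do not measure the spread of levels between animals. They measure how differences between fractions varied from mouse to mouse, with that spread pooled over all 18 arrays and both ages. For each gene limma also drew this spread towards that of genes of similar level, with 13.2 prior against 8 residual degrees of freedom.

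The sorted fractions carried the markers their labels call for. Cd34, the transcript of the surface marker used in the sort, had signals of 21.8, 30.9 and 1.4 in non-bulge mice 1, 2 and 3 and of 3411, 3007 and 7445 in divided bulge, a difference of 7.09 ± 0.42 (limma adjusted p = 3.8e-10). Its non-bulge signals lay below every array median, so the size depends on the value added, and the difference was 8.46 with 1 and 5.73 with 64. Since cells were sorted on CD34, this difference follows from the gate. Lhx2, a transcription factor that maintains the bulge and was not used in the sort, had signals of 212, 180.4 and 145 in non-bulge cells and of 4533, 3414 and 5452 in divided bulge (4.51 ± 0.25, adjusted p = 2.7e-10). For both genes the groups lay far apart in every mouse. Itga6, which encodes the other sorting marker, had signals of 11075, 6256 and 7254 and 9876, 7198 and 7282, and the groups overlapped (0.01 ± 0.15, adjusted p = 0.97).

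**Figure D1:**
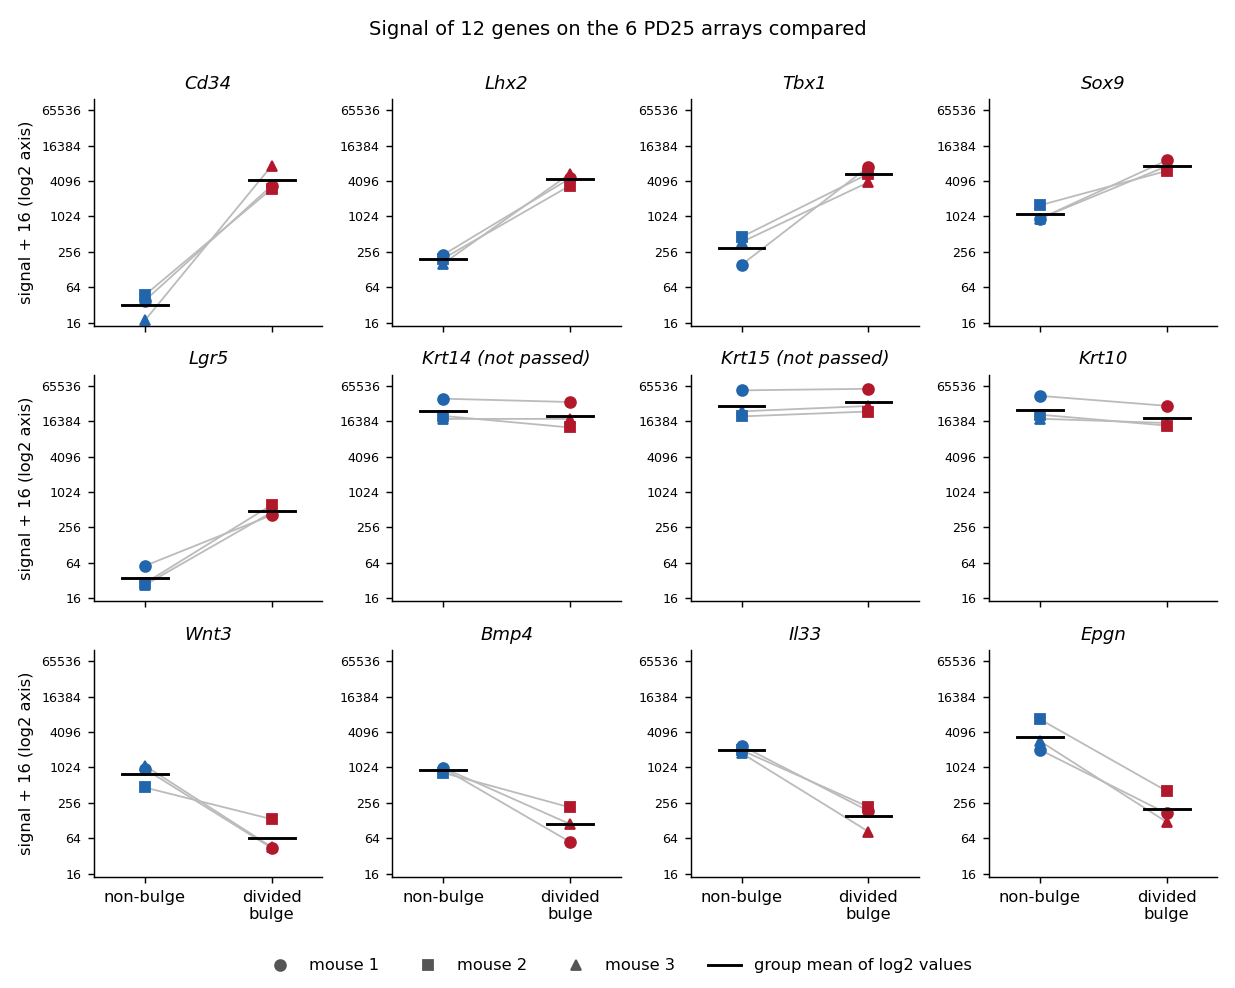
Signal plus 16 on a log2 axis for 12 genes on the 6 arrays, with non-bulge arrays on the left and divided bulge arrays on the right of each panel. Symbols mark the mouse, grey lines join the arrays of a mouse, and black bars are group means of log2 values. Cd34, Lhx2, Tbx1, Sox9 and Lgr5 are higher in divided bulge in all 3 mice, Wnt3, Bmp4, Il33 and Epgn are lower in all 3, Krt10 is slightly lower in each mouse, and the arrays of Krt14 and Krt15 overlap.

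Of 11569 genes, 1428 passed (12.3%), 877 of them higher in divided bulge (7.58%) and 551 lower (4.76%). The median difference over all genes was -0.02. Among the genes that passed, 732 were at least 2-fold higher and 393 at least 2-fold lower, 142 were at least 8-fold higher and 24 at least 8-fold lower, and the median was 1.82 among the higher and -1.38 among the lower. The 3 arrays of each group did not overlap for 1277 of the 1428, and the direction was the same in all 3 mice for 1403. Over all genes, arrays did not overlap for 11.8% in the higher and 10.1% in the lower direction, and 20.4% were higher and 20.8% lower in all 3 mice. Without the non-bulge array of mouse 1 the count was 930. Within the low BioB-5 set, where PD25 has 1 mouse, it was 578, and within the high set it was 968.

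**Figure D2:**
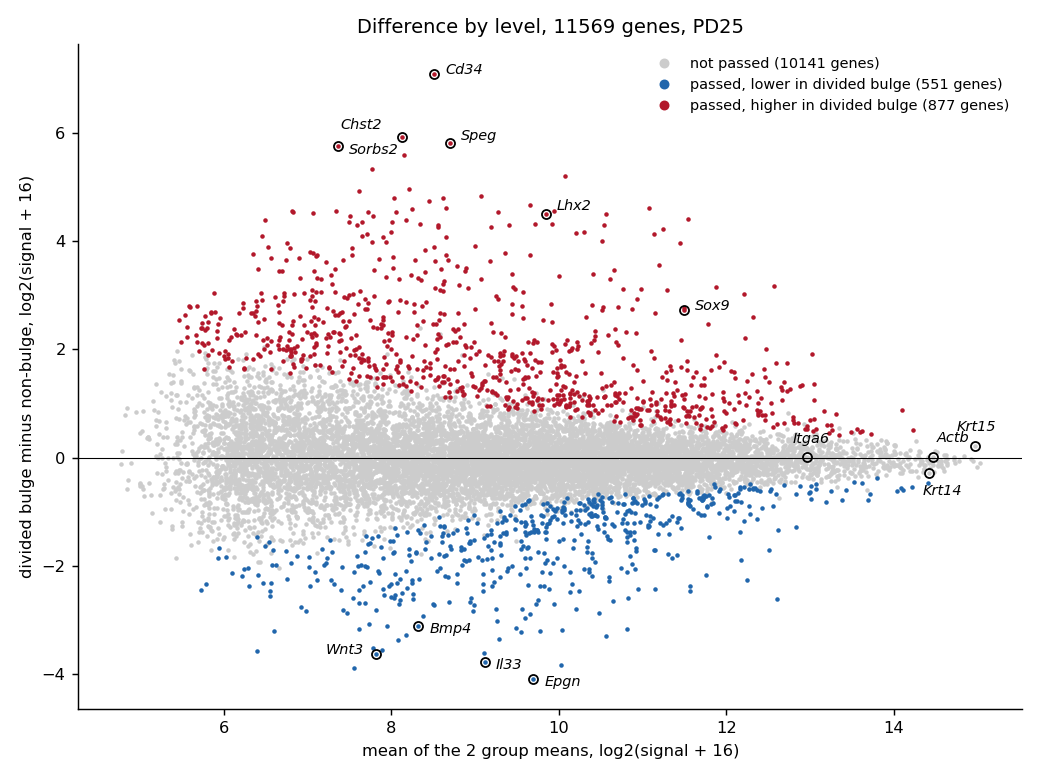
Difference between divided bulge and non-bulge against the mean of both group means, both in log2(signal + 16), for 11569 genes. Red points are the 877 genes that passed and were higher, blue points the 551 that were lower and grey points the 10141 that did not pass. The higher genes reach 7.09 (Cd34) and the lower ones -4.08 (Epgn), while Krt14, Krt15, Itga6 and Actb lie near 0 at high signal.

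Bulge stem cell genes were mostly higher. Of the list's 33 tested genes, 24 were higher and 1 was lower, and the median difference was 1.98. The list was drawn up from genes known to mark the bulge, Cd34 among them, so its direction is no independent evidence. Of 11 transcription factors, 10 were higher. Tbx1, a T-box factor, had signals of 137, 442 and 358 in non-bulge cells and 7135, 5436 and 3891 in divided bulge (4.17 ± 0.34, adjusted p = 2.4e-08). Sox9, which is needed to set up the follicle stem cells, had signals of 919.9, 1567 and 925 and 9175, 6074 and 7295 (2.73 ± 0.22, adjusted p = 2.1e-08). The groups of both factors were well separated. Tcf7l1, a repressor of Wnt targets, differed by 2.40 ± 0.51, Runx1 by 2.17 ± 0.22, Nfatc1, a brake on stem cell division, by 2.12 ± 0.25, Foxc1 by 1.98 ± 0.36 and the vitamin D receptor Vdr by 1.78 ± 0.21. The 6 probe sets of Runx1 gave differences from 0.46 to 2.81. Hopx was the transcription factor of the list that did not pass (-0.10 ± 0.16, adjusted p = 0.79).

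Among surface genes of the list, Lgr5, a receptor for R-spondins, had signals of 40.5, 12.6 and 10.7 in non-bulge cells and 396, 599 and 444 in divided bulge (3.80 ± 0.51, adjusted p = 1.6e-05), and Cd200, an inhibitor of immune cells, differed by 3.31 ± 0.48. The decoy interleukin 1 receptor Il1r2 ran the other way, with non-bulge signals of 4197, 2484 and 2954 and divided bulge signals of 844, 293 and 142 (-3.18 ± 0.48, adjusted p = 5.7e-05). Secreted factors included Igfbp5, which binds insulin-like growth factors (4.47 ± 0.55), the BMP antagonist Grem1 (4.26 ± 0.34) and Angptl7 (1.49 ± 0.46, adjusted p 0.093 without the mouse term). Fgf18, a growth factor of the resting bulge, was listed at 122.6, 3.50 and 218.1 in divided bulge and at or below 11.1 in non-bulge cells, and with 1 dim divided array it did not pass (1.97 ± 0.74, adjusted p = 0.094).

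Keratins of the basal layer did not pass. Krt15, often used as a bulge marker, had signals of 54719.8, 19723 and 24004 in non-bulge cells and 58179.7, 23883 and 29652 in divided bulge (0.22 ± 0.13, adjusted p = 0.31). The ranges overlapped, with mouse 1 bright in both fractions and divided bulge slightly above non-bulge in each mouse. Krt5 (-0.04 ± 0.13), Krt14 (-0.28 ± 0.14), the hemidesmosome collagen gene Col17a1 (0.15 ± 0.14) and Actb (0.02 ± 0.12) did not pass either. Of 16 genes on the basal epidermis list, only Ly6d passed, a surface protein of epidermal cells with signals of 6288, 7832 and 6628 in non-bulge and 1255, 1494 and 1225 in divided bulge (-2.37 ± 0.23, adjusted p = 2.2e-07), and 1 gene of the list was higher as well without the divided array of mouse 1 or 2 or the non-bulge array of mouse 1. The small differences of Krt5, Actb and Itga6 take either sign under other settings.

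With all arrays, genes of DNA replication and mitosis did not pass, although the divided cells were chosen for having divided. None of 35 DNA replication genes and none of 35 mitosis genes passed in limma at 0.05, where 2689 of all 11569 genes had an unadjusted p below 0.05. The replication count depended on single arrays: 3 genes were lower without the divided array of mouse 2 and 2 without the non-bulge array of mouse 2, while the mitosis count was 0 in each of the 6 fits. The list medians were -0.24 and 0.02. Mice disagreed in sign: the replication median was -0.63, 0.34 and -0.34 in mice 1, 2 and 3, and the mitosis median was -0.46, 0.46 and 0.04. Mki67, a marker of cycling cells, had signals of 9040.5, 8476 and 6675 in non-bulge cells and 7211, 10101 and 6845 in divided bulge (-0.01 ± 0.19), and Top2a differed by 0.09 ± 0.29. The divisions of the non-bulge cells are not given, so this compares divided bulge with a fraction of unstated division.

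Regulators of the cell cycle moved singly. Of 19 inhibitors and pocket proteins, 3 were higher and 3 lower. There was 1 of each without the divided array of mouse 3, 1 higher and 2 lower without the non-bulge array of mouse 1, and 1 lower without either array of mouse 2, while without the mouse term 2 were higher and 0 lower by limma. Gadd45g, a stress-induced inhibitor, differed by 1.78 ± 0.52 (adjusted p 0.10 without the mouse term), Rb1, the retinoblastoma gene, by 1.00 ± 0.30, and the transcription factor Foxo3 by 1.00 ± 0.20. The p21 gene Cdkn1a was lower by the test with the mouse term (-0.84 ± 0.24, adjusted p = 0.024, and 0.31 without it), as were Tob1 (-0.81 ± 0.26, 0.079 without it) and Btg1 (-0.66 ± 0.15, 0.43 without it). Cdkn1b, which encodes p27, had non-overlapping arrays but did not pass (0.77 ± 0.26, adjusted p = 0.059). Of 16 G1 cyclins, kinases and E2F and Myc genes, Mycn was higher (2.17 ± 0.64, adjusted p 0.027 with and 0.080 without the mouse term), and Mycl (-2.15 ± 0.40) and the cyclin gene Ccnd2 (-0.60 ± 0.13, 0.58 without the mouse term) were lower. In this list 0 were higher without the divided array of mouse 2 or 3 or the non-bulge array of mouse 1 or 2, and without the mouse term 0 were higher and 1 lower by limma. Ccnd1 did not pass (-0.12 ± 0.18). Over all genes 7.58% were higher and 4.76% lower, and in lists this short the G1 counts lie near those shares.

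Wnt genes split by role. Of 50 tested, 17 were higher and 8 lower, with a median of 0.37, and 5 were lower without the divided array of mouse 1. Among 13 ligand genes, 2 were higher and 4 lower, with a median of -1.05. These ligand counts were 1 and 2 without the divided array of mouse 1, and 1 and 3 without the divided array of mouse 3 or the non-bulge array of mouse 1 or 3. Wnt3, a canonical ligand of the epidermis, had signals of 947, 449.9 and 1079 in non-bulge cells and 27.4, 119 and 29.1 in divided bulge (-3.62 ± 0.47, adjusted p = 1.1e-05). Wnt4 (-1.76 ± 0.33), Wnt7b (-1.77 ± 0.42) and Wnt16 (-2.31 ± 0.63) were also lower in all 3 mice. Wnt5b, which signals largely without β-catenin, had signals of 95.1, 222 and 71.5 and 2317, 1733 and 1896, and every divided array exceeded every non-bulge array (3.91 ± 0.42, adjusted p = 7.8e-07). Wnt9a was higher at lower signal (2.06 ± 0.63, adjusted p = 0.034). Wnt10a (-1.20 ± 0.53), Wnt10b (-1.18 ± 0.65) and Wnt3a (-1.05 ± 0.50) did not pass.

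Of 11 genes on the array that were listed as secreted Wnt inhibitors, only 4 were bright enough to be tested, and 3 of these were higher. Dkk3 had signals of 451, 479.5 and 647 in non-bulge cells and 10784, 7631 and 10091 in divided bulge (4.14 ± 0.28, adjusted p = 1.4e-09). Sfrp1, which binds Wnt proteins outside the cell, had signals of 1153, 489.5 and 588 and 11848, 9746 and 11659 (3.96 ± 0.27, adjusted p = 1.7e-09). For both, the lowest divided array was several times the highest non-bulge array. Sostdc1, which inhibits Wnt and BMP, differed by 0.51 ± 0.16, higher in 2 of 3 mice, with overlapping arrays and an adjusted p of 0.044 with and 0.76 without the mouse term. Wif1 did not pass (0.83 ± 0.52).

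Receptor genes leaned higher, 9 of 18, with 2 lower and a median of 1.12. Fzd2 had signals of 898, 339.6 and 519 in non-bulge cells and 14601, 7479 and 10383 in divided bulge (4.23 ± 0.28, adjusted p = 1.3e-09). Fzd1 differed by 2.75 ± 0.29, Fzd3 by 2.58 ± 0.38, Fzd7 by 2.21 ± 0.19, the Wnt5 receptor gene Ror2 by 2.27 ± 0.56 and the co-receptor gene Lrp6 by 1.04 ± 0.19. Fzd10, at signals of 210.4, 389 and 418 and 48.5, 72.9 and 46.1, ran the other way (-2.27 ± 0.44), though its other probe set gave -0.62. Lrp4, a co-receptor that can restrain Wnt signalling, was lower as well (-1.49 ± 0.22). Among 15 nuclear effectors and targets, Tcf7l1, Lef1 (1.83 ± 0.46, adjusted p 0.050 without the mouse term) and Tcf7l2 (1.63 ± 0.20) were higher. Axin2, a widely used Wnt target, had signals of 2288, 1628 and 2938 in non-bulge cells and 1048, 941 and 1916 in divided bulge. It was lower in each mouse although the ranges overlapped (-0.84 ± 0.23, adjusted p 0.019 with and 0.068 without the mouse term). Apcdd1, another target, was lower in the same way (-1.29 ± 0.20, 7.1e-05 with and 0.10 without). Among effectors and targets the lower count was 1 without the divided array of mouse 1 or 2 or the non-bulge array of mouse 1 or 3. Ctnnb1, which encodes β-catenin, did not pass (0.31 ± 0.11).

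**Figure D3:**
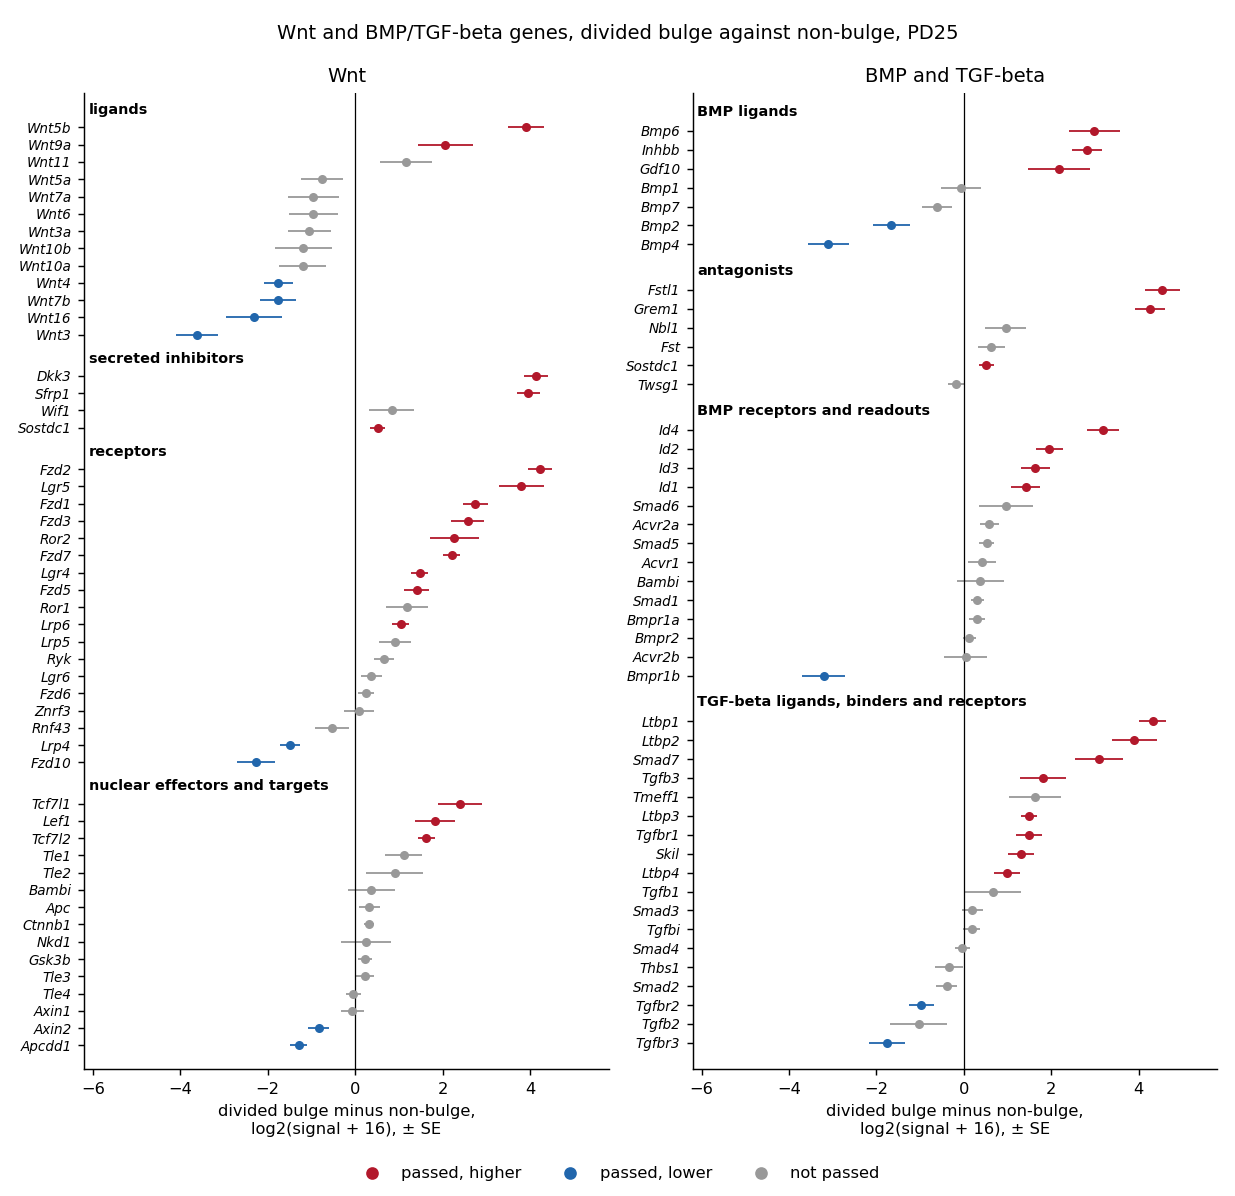
Difference between divided bulge and non-bulge in log2(signal + 16), with standard errors, for the 50 Wnt and 45 BMP and TGF-beta genes tested, grouped by role. Red marks genes that passed and were higher, blue those that were lower and grey those that did not pass. Most Wnt ligands lie left of 0 and most receptors right of it, Bmp6 and Bmp4 lie on opposite sides, and 4 Id genes are higher.

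BMP and TGF-beta genes leaned higher, with 18 higher, 5 lower and a median of 0.58 over 45 tested. The ligands split again. Bmp4 had signals of 971, 813 and 991 in non-bulge cells and 39.2, 198 and 95.0 in divided bulge (-3.10 ± 0.47, adjusted p = 7.1e-05), and Bmp2 was lower too (-1.66 ± 0.42). Bmp6, a signal that keeps bulge cells at rest, had signals of 24.6, 10.4 and 32.8 and 148, 307 and 477 (2.99 ± 0.57, adjusted p = 0.00086), and the activin subunit gene Inhbb differed by 2.82 ± 0.34. The groups did not overlap for any of these 4 genes. Gdf10 passed only with the mouse term (2.18 ± 0.70, 0.045 with and 0.12 without it), and 1 of its divided arrays stood at 659.5 against 41.2 and 57.9.

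Of 6 antagonist genes, Grem1, Fstl1 (4.54 ± 0.39) and Sostdc1 were higher. Grem1 had signals of 144, 168 and 65.5 in non-bulge cells and 2264, 2965 and 2467 in divided bulge. The 4 Id genes, transcriptional targets of BMP signalling, were higher. Id4 had signals of 1044, 3572 and 2156 and 31520.3, 11700.2 and 16444 (3.17 ± 0.36, adjusted p = 2.0e-06), Id2 differed by 1.96 ± 0.31, Id3 by 1.63 ± 0.33 and Id1 by 1.42 ± 0.33. Each was higher in all 3 mice, and the arrays of Id1 and Id3 overlapped. The 3 probe sets of Id2 ranged from 0.26 to 2.68. The receptor gene Bmpr1b was lower (-3.21 ± 0.50, with 3 probe sets from -3.21 to -0.68), while Bmpr1a did not pass (0.29 ± 0.18).

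Among 18 TGF-beta genes, 8 were higher and 2 lower. The lower count was 1 without either array of mouse 1, and 0 by limma without the divided array of mouse 2 or the non-bulge array of mouse 3. The latent TGF-beta binding protein genes were higher, with Ltbp1 at 4.32 ± 0.31, Ltbp2 at 3.90 ± 0.52, Ltbp3 at 1.49 ± 0.18 and Ltbp4 at 0.98 ± 0.29 (adjusted p 0.057 without the mouse term). The inhibitory Smad7 differed by 3.09 ± 0.56 and the type I receptor gene Tgfbr1 by 1.48 ± 0.29. The genes of the type II and type III receptors ran the other way, with Tgfbr2 at -0.97 ± 0.28 and Tgfbr3 at -1.76 ± 0.41. The BMP and TGF-beta list had 2 lower genes without the divided bulge array of mouse 2 and 3 without the non-bulge array of mouse 1 or of mouse 3.

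Some members of other signalling pathways passed too, in short lists, against 7.58% higher and 4.76% lower over all genes. Of 12 Hedgehog genes 4 were higher, 0 lower, with a median of 1.07: the kinesin Kif7 (2.41 ± 0.54) and the transcription factor Gli3 (1.58 ± 0.30), which relay the signal, and the co-receptor genes Boc (1.46 ± 0.28) and Gas1 (1.23 ± 0.19). The pathway target Gli1 did not pass (1.39 ± 0.59, adjusted p = 0.15). Of 18 FGF genes 5 were higher and 2 lower, among them the ligand gene Fgf1 (3.34 ± 0.40), the receptor gene Fgfr1 (2.59 ± 0.29) and, lower, the FGF carrier gene Fgfbp1 (-2.42 ± 0.25). The lower FGF count was 1 without either array of mouse 1 and without the mouse term.

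Of 14 EGF family genes 2 were higher and 2 lower. Epgn, the EGF receptor ligand epigen, fell furthest of all 11569 genes, with signals of 2028, 6745 and 2860.3 in non-bulge cells and 153, 389 and 104 in divided bulge (-4.08 ± 0.36, adjusted p = 7.7e-08). Nrg1, a ligand of the related ERBB receptors, was higher (2.50 ± 0.66), as was Egfr (1.05 ± 0.18), for which 7 probe sets gave values from -0.49 to 1.29. Erbb3 was lower with the mouse term only (-0.70 ± 0.18, 0.012 with and 0.13 without it). The EGF family counts were 1 higher and 2 lower without either array of mouse 2, 1 and 1 without the divided array of mouse 3 or the non-bulge array of mouse 1, and 2 and 1 without the non-bulge array of mouse 3 or the mouse term. Of 14 Notch genes, 3 were higher, led by the target Hey1 (2.09 ± 0.66, adjusted p 0.13 without the mouse term), and the ligand gene Dll1 was lower (-0.96 ± 0.26, 0.062 without the mouse term). The Notch counts were 1 higher and 0 lower without the divided array of mouse 2 or the mouse term, 1 and 1 without the divided array of mouse 3 or the non-bulge array of mouse 2, and 0 lower without either array of mouse 1 or the non-bulge array of mouse 3. Of 11 IGF genes, Igfbp5, Igfbp7 (1.89 ± 0.21) and Igfbp4 (0.64 ± 0.14, 0.32 without the mouse term) were higher and Igfbp3 was lower (-1.42 ± 0.32), a call that was lost without either array of mouse 1. The retinoic acid binding protein genes Crabp1 (4.10 ± 0.55) and Crabp2 (1.29 ± 0.24) were the 2 of 9 retinoid genes that passed. In lists this short, the EGF family counts lie near the shares over all genes, 7.58% higher and 4.76% lower. So do the Notch counts of 1 higher and 0 or 1 lower.

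Matrix genes leaned higher. Of 22 collagen genes, 11 were higher and none lower (0 with the mouse term or without it), with a median of 1.39. Col8a2 had signals of 41.5, 62.0 and 17.3 in non-bulge cells and 1606, 1214 and 2265 in divided bulge (4.96 ± 0.49, adjusted p = 3.3e-07). The fibrillar genes Col5a2 (4.13 ± 0.44), Col1a1 (3.21 ± 0.53), Col5a1 (3.13 ± 0.34) and Col3a1 (2.32 ± 0.63) and the basement membrane genes Col4a3 (1.88 ± 0.53, adjusted p 0.14 without the mouse term) and Col4a4 (2.85 ± 0.46) were among them. Without the non-bulge array of mouse 2 the collagen count was 7.

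Of 24 proteoglycan and matricellular genes, 12 were higher and 3 lower, with a median of 1.15. Bgn, which encodes biglycan, had signals of 208, 211 and 95.2 in non-bulge cells and 10230.5, 3090.5 and 8810.5 in divided bulge (5.20 ± 0.41, adjusted p = 1.8e-08). Cspg4, the gene of the NG2 proteoglycan, had signals of 275, 318 and 312 and 6819.5, 6794 and 7996 (4.50 ± 0.42). In both, each divided array was an order of magnitude above any non-bulge array. Gpc6 differed by 4.92 ± 0.67, with 4 probe sets from 0.80 to 4.92, and tenascin C, Tnc, by 1.75 ± 0.29, with another probe set at -0.28. Ccn2, the connective tissue growth factor gene, had signals of 221, 1024 and 182 and 4853, 5696 and 7097, with separate groups (adjusted p = 7.3e-06). Thbs2 (-2.62 ± 0.55), Tnxb (-2.59 ± 0.56) and Efemp1 (-2.03 ± 0.62, adjusted p 0.066 without the mouse term) were lower, and 1 was without the non-bulge array of mouse 1.

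Of 23 integrin and laminin genes 7 were higher and 0 lower, with 1 lower without the divided array of mouse 1. The integrin genes were Itga1 (3.74 ± 0.48), Itgb8 (2.80 ± 0.37) and Itgb6 (1.83 ± 0.34), whose products bind collagen or free latent TGF-beta. The basement membrane genes were Fras1 (2.63 ± 0.58), Lamb1 (2.02 ± 0.26), Frem2 (1.26 ± 0.37) and Npnt (1.92 ± 0.20), which anchors the arrector pili muscle to the bulge. Of 17 actin and contractile genes 7 were higher and 1 lower, led by Sorbs2 (5.75 ± 0.44), Myl9 (3.05 ± 0.59) and Cnn3 (2.32 ± 0.50). That count was 4 without either array of mouse 1. Among 27 guidance genes, Sema3e was higher (4.67 ± 0.39) and Slit3 (-1.98 ± 0.61, adjusted p 0.053 without the mouse term) and Robo1 (-1.41 ± 0.39) were lower. In all, 4 guidance genes were higher and 2 lower, against 7.58% and 4.76% over all genes. The lower guidance count was 1 without the divided array of mouse 1 or 2 or the mouse term, and 0 without the divided array of mouse 3 or the non-bulge array of mouse 1 or 3. Among 17 genes of proteases and their inhibitors, Timp2 (4.15 ± 0.25) and Mmp11 (2.90 ± 0.47) were higher and Adam8 (-2.25 ± 0.62), Htra1 (-1.88 ± 0.26), Prss23, Ctsc (-1.70 ± 0.35) and Plau (-1.21 ± 0.22) were lower.

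Of 23 homeobox genes, 11 were higher and 1 lower, with a median of 1.00. Hoxd8 had signals of 13.4, 35.2 and 40.2 in non-bulge cells and 1272, 685 and 1165 in divided bulge (4.54 ± 0.50, adjusted p = 1.3e-06). Hoxc13, a regulator of hair keratins, differed by 3.75 ± 0.46 and Irx1 by 2.84 ± 0.36, and Hoxc4 was lower (-1.62 ± 0.37). This count rested on few arrays: it was 5 without the divided array of mouse 1, 6 without that of mouse 3, 4 without the non-bulge array of mouse 1 and 8 without the mouse term, and 0 were lower without either array of mouse 1.

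Transcription factors of the epidermis moved in both directions, 6 of 27 higher and 7 lower. Bnc2 (4.30 ± 0.43), Dlx3 (3.21 ± 0.59) and Bnc1 (2.17 ± 0.21) were higher. The lower ones included factors of barrier formation and terminal differentiation: Grhl3 (-1.65 ± 0.41), Klf5 (-2.10 ± 0.25), Gata3 (-1.37 ± 0.22) and Zfp750 (-1.78 ± 0.48, adjusted p 0.084 without the mouse term), with Sox6 (-2.38 ± 0.51) and Ripply3 (-3.27 ± 0.50). Klf5 had signals of 3559.8, 1964 and 2809 in non-bulge cells and 564, 791 and 524 in divided bulge. Trp63, the p63 gene of all basal keratinocytes, did not pass (0.14 ± 0.14).

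Genes of differentiating epidermis were not uniformly lower. Of 29 tested, 3 were higher, 5 lower and 21 did not pass, with a median of -0.17. The counts were 4 higher and 3 lower without the divided array of mouse 2, and 2 and 1 without the mouse term. Krt10, a suprabasal keratin, had signals of 44139.5, 21087 and 18000.3 in non-bulge cells and 29858, 13748 and 15199.5 in divided bulge. It was lower in each mouse by less than the spread between mice (-0.47 ± 0.13, adjusted p 0.013 with and 0.71 without the mouse term). Krt1 did not pass (-0.53 ± 0.23). The transglutaminase genes differed in direction, with Tgm3 lower (-2.70 ± 0.41) and Tgm5 higher (3.27 ± 0.35), and the calmodulin-like Calml3 was higher (3.56 ± 0.30). The involucrin gene Ivl, a cornified envelope precursor, did not pass (0.32 ± 0.44).

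Of 14 genes of the isthmus and infundibulum, the upper parts of the follicle, the protease inhibitor gene Cst6 (0.95 ± 0.30, adjusted p 0.42 without the mouse term) and Sostdc1 were higher and Defb1, a β-defensin, was lower (-2.46 ± 0.44). The higher count was 0 without the divided array of mouse 1 or 3, the non-bulge array of mouse 1 or 3, or the mouse term. Plet1, a marker of the upper follicle, did not pass (-0.74 ± 0.27, adjusted p = 0.081). Of 15 sebaceous lineage genes 2 were higher and 4 lower, among them Pparg, the regulator of lipid synthesis (-1.75 ± 0.54, 0.14 without the mouse term), and the desaturase gene Scd1 (-0.61 ± 0.14, 0.24 without it), while Prdm1 was higher (1.88 ± 0.48). The sebaceous counts turned on single arrays: 1 higher and 2 lower without the divided array of mouse 2 or the mouse term, 1 and 1 without the divided array of mouse 3, 1 and 3 without the non-bulge array of mouse 1, and 3 and 1 without the non-bulge array of mouse 3. Of 9 genes of the inner bulge and companion layer, 6 were higher, including Pdzrn3 (4.31 ± 0.39), Krt6a (3.11 ± 0.44) and Krt75 (2.47 ± 0.59). Krt6a and Krt6b are near copies, so the probe sets of each may bind RNA of the other. Of 12 hair germ and matrix genes 3 were higher and 2 lower, with Hoxc13, Dlx3 and Lef1 against Bmp4 and Ctsc. Of 21 junction genes, Cldn8 was higher (1.62 ± 0.38) and 5 were lower, among them Ocln (-1.40 ± 0.41) and Cdh13 (-1.32 ± 0.28). The lower count was 3 without the divided array of mouse 1, where 0 were higher, 3 without either array of mouse 2, and 2 without the non-bulge array of mouse 1 or the mouse term.

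Cytokine genes leaned lower. Of 18 tested, 3 were higher and 6 lower, with a median of -0.80. Il33, an alarmin stored in keratinocyte nuclei, had signals of 2378, 1993 and 1777 in non-bulge cells and 170.2, 202 and 66.8 in divided bulge (-3.78 ± 0.38, adjusted p = 3.4e-07). Tslp, an epidermal cytokine that primes type 2 immunity, differed by -3.56 ± 0.61, the interleukin 1 receptor antagonist Il1rn by -2.43 ± 0.32, and Il1r2 was described above. Kitl, which supports melanocyte stem cells, had signals of 6.3, 99.8 and 66.6 and 1085, 1632 and 683 (4.18 ± 0.63, adjusted p = 6.4e-05). The chemokine receptor gene Cxcr4 (3.65 ± 0.47) and the chemokine gene Cxcl14 (1.64 ± 0.31) were higher. The groups did not overlap for any of the cytokine genes named here.

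Of 21 interferon response and antigen processing genes, 0 were higher and 9 lower by limma, with a median of -0.54. The immunoproteasome genes Psmb8 (-1.66 ± 0.30) and Psmb9 (-1.20 ± 0.31), the factor Irf1 (-1.48 ± 0.31) and the deubiquitinase-like Usp18 (-1.94 ± 0.49) passed with and without the mouse term. B2m had signals of 32257, 19422 and 16287 in non-bulge cells and 19988, 14135 and 10653 in divided bulge, lower in each mouse but overlapping (-0.59 ± 0.13, 0.0040 with and 0.56 without the mouse term). H2-K1 (-0.54 ± 0.17, adjusted p 0.68 without it), H2-D1 (-0.78 ± 0.20, 0.15), Tap1 (-1.06 ± 0.34, 0.085) and Tapbp (-0.58 ± 0.17, 0.13) also passed with the mouse term only, but another probe set of Tap1 gave 1.16 and the mean of both 0.050. Class I genes are near copies of each other, and probe sets of H2-D1 ranged from -4.58 to 0.06 and of H2-K1 from -1.96 to 1.07. The list's count of lower genes was 4 without the mouse term, 4 without the divided or the non-bulge array of mouse 2, and 2 without the non-bulge array of mouse 1.

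Of 26 immediate early genes, which dissociation of tissue can induce, 0 were higher and 6 lower by limma, with a median of -0.44. Fos had signals of 6802, 6527 and 8899 in non-bulge cells and 4667, 1265 and 712 in divided bulge (-2.17 ± 0.47, adjusted p = 0.0025), and the divided array of mouse 1 stood well above the other 2. Fosb (-2.21 ± 0.58), Atf3 (-2.10 ± 0.47), Zfp36 (-1.70 ± 0.21) and Dusp1 (-1.03 ± 0.21, 0.092 without the mouse term) and Ier2 (-1.59 ± 0.42, 0.11 without it) were the others. The count was 3 without the divided array of mouse 3. The part of handling in these differences was not tested. Of 25 Myc and ribosome biogenesis genes 3 were lower, Gnl3 (-1.23 ± 0.26), Nolc1 (-0.76 ± 0.23, 0.046 without the mouse term) and Wdr43 (-0.67 ± 0.21, 0.23 without it), and 0 were higher. That count was 5 without the divided array of mouse 2 and 1 when any single one of the other 5 arrays was left out. None of 22 respiratory chain genes passed in limma with all arrays, and 2 were lower without the divided array of mouse 1.

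**Figure D4:**
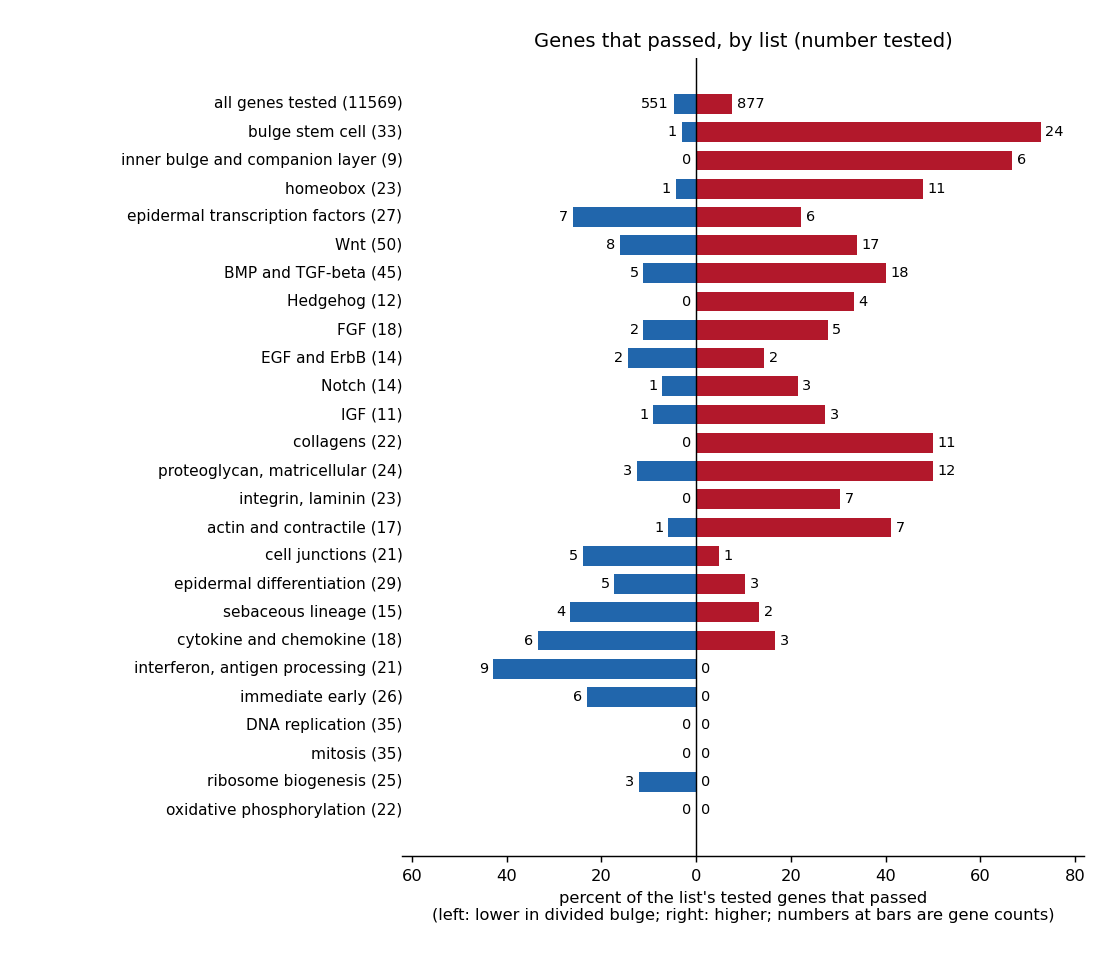
Percent of each list's tested genes that passed, with genes lower in divided bulge to the left of 0 and higher ones to the right, and gene counts at the bar ends. Numbers tested stand in brackets after the list's name, and the top bar is all 11569 genes, of which 877 were higher and 551 lower. The bulge stem cell list (24 of 33 higher) and the collagens (11 of 22) reach far to the right, interferon and antigen processing genes (9 of 21 lower) to the left, and the DNA replication, mitosis and oxidative phosphorylation lists have no bar.

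Several of the largest differences lay outside these lists. After Cd34, the largest increases among genes with separate arrays were Chst2, a sulfotransferase gene with signals of 4.1, 43.6 and 22.5 in non-bulge cells and 918, 3379 and 3290.1 in divided bulge (5.93 ± 0.55), and Speg, a muscle kinase gene (5.81 ± 0.59), for which 4 probe sets ranged from 0.96 to 5.81. Armcx2 (5.60 ± 0.42) and its X-linked neighbour in the family Armcx3 (4.75 ± 0.41), the actin regulator Eps8 (5.34 ± 0.47), the fatty acid desaturase Fads1 (4.83 ± 0.42), Scrg1 (4.80 ± 0.39), the ubiquitin ligase Rnf150 (4.80 ± 0.42) and the ephrin receptor gene Ephb1 (4.62 ± 0.37) followed. Their non-bulge signals were low, between 2.10 and 166.4, so their sizes depend on the value added to the signal. Among the decreases after Epgn stood the sialyltransferase gene St3gal6 (-3.89 ± 0.58), the transporter gene Slc22a4, with signals of 4708, 2607 and 4900.3 in non-bulge cells and 181, 638 and 148 in divided bulge (-3.83 ± 0.41), the phosphatase subunit gene Ppp2r2c (-3.61 ± 0.34), the inflammatory caspase gene Casp4 (-3.56 ± 0.79), the sphingosine phosphate receptor gene S1pr3 (-3.52 ± 0.66), Plbd1 (-3.35 ± 0.39), the thrombin receptor gene F2r (-3.30 ± 0.34), Tnfrsf19 (-3.23 ± 0.34), also known as Troy, and the prostaglandin receptor gene Ptger4 (-3.20 ± 0.36). Like the increases, these decreases were chosen among genes with separate arrays, so their lack of overlap follows from the choice.

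Many of the smaller differences depended on single arrays. Of 247 genes named for this comparison that passed, 75 lost the call in limma when at least 1 of the 6 arrays was left out, and the highest adjusted p then reached is given here for those described in the text. Leaving out the divided bulge array of mouse 1 gave the highest adjusted p for Gdf10 (0.42), Adam8 (0.20), Hoxc4 (0.080), Zfp750 (0.23), Cst6 (0.28), Cldn8 (0.051), Wdr43 (0.16) and Dct (0.24). The divided bulge array of mouse 2 mattered most for Tob1 (0.21), Mycn (0.25), Lef1 (0.11), Bmp2 (0.085) and Nptx1 (0.36). For the divided bulge array of mouse 3 the genes were Wnt16 (0.18), Wnt9a (0.26), Sostdc1 (0.38), Ltbp4 (0.26), Nrg1 (0.098), Hey1 (0.27), Efemp1 (0.35), Grhl3 (0.0998), Ocln (0.15), Tap1 (0.31), Fosb (0.20), Atf3 (0.074) and Nolc1 (0.18). Leaving out the non-bulge array of mouse 1 gave the highest adjusted p for Angptl7 (0.34), Gadd45g (0.34), Rb1 (0.34), Wnt7b (0.073), Axin2 (0.13), Id1 (0.078), Tgfbr2 (0.15), Kif7 (0.073), Erbb3 (0.13), Igfbp4 (0.058), Igfbp3 (0.077), Tnxb (0.053), Robo1 (0.24), Krt10 (0.16), Prdm1 (0.11), Usp18 (0.052), B2m (0.055), H2-K1 (0.33) and H2-D1 (0.15). The non-bulge array of mouse 2 mattered most for Cdkn1a (0.24), Ror2 (0.11), Col4a3 (0.15), Frem2 (0.31), Psmb9 (0.14) and Tapbp (0.17). For the non-bulge array of mouse 3 the genes were Tgfbr3 (0.083), Dll1 (0.15), Col3a1 (0.13), Slit3 (0.33), Pparg (0.17), Scd1 (0.075), Krt75 (0.061), Ier2 (0.098) and Col1a2 (0.20). Smarca2, Stard4, Hk2 and Pfkfb3 also lost the call and are treated with their lists further below. The remaining genes with values given as passing kept the call in each of those 6 fits.

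Genes of other skin cell types were mostly dim in both fractions. In bulk samples, fewer cells of a type and less RNA per cell cannot be told apart. Of 10 melanocyte genes on the array, the summed signal was 279.2 to 665.8 in non-bulge cells and 1318 to 2090.2 in divided bulge. Mitf (2.47 ± 0.32, another probe set 0.56) made up most of it in divided bulge, Dct was higher at low signal (2.11 ± 0.58), and Tyr and Tyrp1 stayed at or below 81.5 on every array. The pigment gene Pmel was lower in each mouse, at 83.5, 194.7 and 234 in non-bulge and 80.8, 109 and 202.5 in divided bulge. Of 4 melanocyte genes tested Mitf and Dct passed, and the count was 1 without either array of mouse 1 or the non-bulge array of mouse 2. Of 17 dermal fibroblast genes the summed signal was 2587 to 4330 in non-bulge cells and 2720 to 4170 in divided bulge. Thy1 made up most of the non-bulge sum, with signals of 3042, 3901 and 2259, and had 1040, 912 and 1284 in divided bulge. The similar sums therefore hide rises of other members, such as Col1a1, from 220, 121 and 51.3 to 1837, 610 and 1468. In that list Col1a1, Col1a2 (2.22 ± 0.64), Col3a1 and Crabp1 were higher and Thy1 was lower (-1.47 ± 0.26), while Lum, Dpt, Dcn and Pdgfra did not exceed 69.4 on any array. The higher count of the 7 tested was 2 without the divided array of mouse 1 or 3 or the non-bulge array of mouse 2 or 3. The sum of 17 leukocyte genes was 968.9 to 1322 in non-bulge cells and 1560 to 1989 in divided bulge, with Ptprc at or below 56.7 and none of the 11 tested members passing in limma. Brighter members were Cd74, at 197.7, 152.3 and 98.8 against 208.3, 338.6 and 400.3, and H2-Aa, at 169.1, 46 and 139.9 against 342.4, 186.8 and 197.9. Both were higher in each mouse, while Cd68 was lower in mice 1 and 2, at 89.9 and 98.4 against 17.3 and 60.4. The sum of 10 muscle genes was 375.9 to 638.6 and 1177 to 1258, mostly Smtn in divided bulge (2.11 ± 0.40), with Ckm, Acta1, Des and Myh11 at or below 98.7. Only 1 of 12 endothelial and 1 of 3 red cell genes on the array were bright enough to be tested, and neither passed, with sums of 309.1 to 481.8 against 451.5 to 496.9 and of 67.2 to 245.5 against 71.5 to 147.1. Of 8 Merkel and glial genes on the array 2 were tested. Mbp was lower (-2.25 ± 0.45). Krt8, a keratin of simple epithelia and Merkel cells, had signals of 1.2, 3.9 and 48.2 in non-bulge cells and 124, 283 and 13.8 in divided bulge, overlapped and did not pass (1.94 ± 0.80, adjusted p = 0.13), but was higher without either array of mouse 3. Atoh1 and Krt20 were at or below 38.3. Of fat cell genes Lpl was lower (-1.86 ± 0.35), and Adipoq was at or below 19.3. The part of these cells in the results was not tested.

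Undivided bulge cells of the same mice were compared with divided ones to see which differences go with division. They share the non-bulge arrays as controls, so their own comparison with non-bulge is given only beside the first. In it 1700 genes passed (14.7%). Cd34 differed from non-bulge by 7.09 ± 0.42 in divided and 7.42 ± 0.42 in undivided bulge, Lhx2 by 4.51 and 4.19, Sox9 by 2.73 and 2.71, Wnt3 by -3.62 and -3.95 and Il1r2 by -3.18 and -5.52. In the direct comparison of divided with undivided bulge, 10 genes passed (0.0864%), and each was higher in divided bulge. The count was 0 without the mouse term, with 635 genes at an unadjusted p below 0.05 there and 1020 with it. The direction depended on single arrays too: 12 were higher and 17 lower without the divided array of mouse 2, 27 and 8 without the undivided array of mouse 2, 16 and 1 without that of mouse 3, and 64 and 32 within the low BioB-5 set.

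None of the 10 genes passed as higher than non-bulge cells. Itih5, which encodes a hyaluronan-binding protein, had divided bulge signals of 624, 295 and 259, undivided signals of 82.6, 42.4 and 54.1 (2.36 ± 0.38, adjusted p = 0.015) and non-bulge signals of 1026, 237 and 846. Ntn4, the netrin 4 gene, had 516, 332 and 302, 4110.5, 1157 and 1017 and 1847, 2232 and 2356 in undivided, divided and non-bulge cells (2.14 ± 0.33, adjusted p = 0.015). For both genes the divided and undivided arrays were separate and the divided and non-bulge arrays overlapped. F2r was 1.96 higher in divided than in undivided bulge and -3.30 relative to non-bulge, and Fcgbp was 1.59 and -2.45. Slc6a4, the serotonin transporter gene, was 1.54 and -2.37, Prss23 1.51 and -1.86, Lrp4 1.22 and -1.49, and Nptx1 2.18 and -1.27 (adjusted p against non-bulge 0.048 with and 0.096 without the mouse term, and a difference of 0.029 within the low BioB-5 set). Itpripl2 (2.00) and Man2a2 (1.42) did not pass against non-bulge cells, nor did Itih5 and Ntn4. So 6 of the 10 passed as lower than non-bulge, 0 as higher and 4 did not pass. The count ranged from 0 to 35 when single arrays were left out, at 0 without either mouse 1 array, and was 96 within the low BioB-5 set, which has 1 PD25 mouse, and 0 within the high set.

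The same comparison at PD21 used 3 other mice and no shared array. There 49 genes passed (0.424%), each higher in divided bulge, and 21 did without the mouse term. The difference between the ages was tested directly, and 451 genes passed (3.9%), 272 above 0 (2.35%) and 179 below 0 (1.55%). Of the 451, 433 had also passed at PD25 in the same direction, 262 of them higher and 171 lower, and 18 had not passed there. The test between the ages contains the PD25 difference and its arrays, so this shared direction is largely built in. Without the mouse term 189 passed, and within the BioB-5 sets 233 in the low and 1 in the high set, which holds 1 PD21 mouse. The count was 263 without the divided PD25 array of mouse 3, 252 without the non-bulge PD25 array of mouse 1, 263 and 280 without the divided PD21 arrays of mice 1 and 2, and 281 without the non-bulge PD21 array of mouse 1.

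The sorting marker moved with this difference. Cd34 had signals of 568, 225 and 807 in divided bulge at PD21, between the non-bulge signals of 1.1, 1.1 and 25.1 and the divided signals at PD25, and its difference from non-bulge was 4.41 ± 0.42 at PD21, 2.67 ± 0.59 less than at PD25 (adjusted p = 0.011). Itga6 differed between the ages by 0.07 ± 0.21. Of the 33 bulge stem cell genes, 17 passed with a larger difference at PD25 and 1, Il1r2, with a more negative one. Lhx2 had divided signals of 898, 575 and 922 at PD21 (2.55 ± 0.35, adjusted p = 0.00034). Sox9 (1.83 ± 0.31), Tbx1 (2.26 ± 0.48), Dkk3 (2.09 ± 0.39) and Sfrp1 (2.14 ± 0.38) were among the 17, while Lgr5 (2.51 ± 0.72, adjusted p = 0.055) and Tcf7l1 (2.21 ± 0.72) were not. Of the 50 Wnt genes 10 passed with a greater and 5 with a more negative difference at PD25. Without the mouse term the bulge counts were 7 and 1 and the Wnt counts 4 and 2. The call of Il1r2 was lost without the divided PD25 array of mouse 2 or 3, the non-bulge PD25 array of mouse 1 or 3, the divided PD21 array of mouse 2 or the non-bulge PD21 array of mouse 1 or 2. For Wnt, 6 had a greater and 2 a more negative difference without the divided PD21 array of mouse 1, and the second count was 2 or 3 without the divided PD25 array of mouse 1 or 3, the non-bulge PD25 array of mouse 1 or 3, or the non-bulge PD21 array of mouse 1 or 3. None of the 35 replication and 35 mitosis genes passed this test in limma. On the first principal component of the 18 arrays, which held 35.4% of the variance, the divided arrays of PD21 stood at -45.2, -40.4 and -18.2 and the non-bulge arrays at -59.7 to -37.9, so that 2 of the 3 lay among these and that of mouse 3 outside them. Those of PD25 stood at 31.3, 37.2 and 47.5, beside undivided arrays at 35.1 to 51.6. How far the share of bulge cells in the divided fraction differed between the ages was not tested, and that share and the age cannot be told apart here.

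Some genes differed at PD25 with little or opposite difference at PD21. Pm20d1, an enzyme gene for N-acyl amino acids, had signals of 1.1, 7.7 and 14.5 in non-bulge cells and 530.3, 436 and 638 in divided bulge at PD25, and of 36.3, 29.6 and 63.1 and 20.4, 11.8 and 12.1 at PD21 (5.47 ± 0.73, adjusted p = 0.00034). Wnt5b differed by 3.91 at PD25 and -0.45 ± 0.42 at PD21 (4.36 ± 0.59, adjusted p = 0.00034), and Wnt3 by -3.62 and -0.18 ± 0.47 (-3.44 ± 0.67, adjusted p = 0.0052). For Wnt3, PD21 signals of 557, 1228 and 950.0 in non-bulge and 666, 889 and 751 in divided bulge overlapped. Atf3, an early response factor, was lower at PD25 by the values above and differed by 0.95 ± 0.47 at PD21 (-3.05 ± 0.66, adjusted p = 0.010), and 5 of the 26 immediate early genes passed with a more negative difference at PD25. That count was 1 without the mouse term and 3 without the divided PD25 array of mouse 2 or 3, the non-bulge PD25 array of mouse 1, the divided PD21 array of mouse 1 or 2 or any non-bulge PD21 array. Genes such as Cxcr4 (0.96 ± 0.67), Col1a1 (-0.34 ± 0.75) and Krt6a (0.80 ± 0.62) passed at PD25 and not in the test between the ages.

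**Figure D5:**
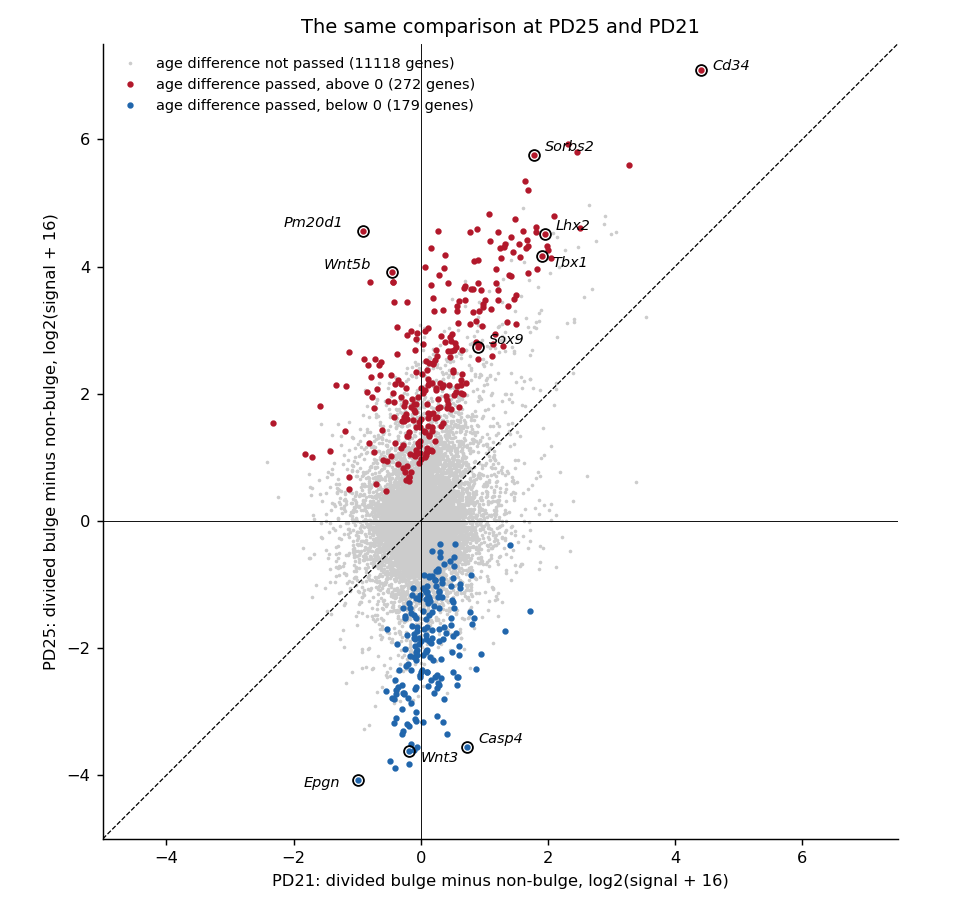
Difference between divided bulge and non-bulge at PD25 against that at PD21, in log2(signal + 16), for 11569 genes, with equal differences on the dashed line. Red points are the 272 genes whose difference was greater at PD25, blue points the 179 whose difference was more negative, and grey points the 11118 that did not pass. Coloured points spread along the PD25 axis while most lie within 2 of 0 on the PD21 axis, and Cd34 lies furthest right of the genes named.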

How the data were processed

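Gene expression was measured on 18 Affymetrix mouse arrays, 3 for each of 6 groups. The values used are the authors' deposited signal intensities, linear and produced with GCOS per the submitters' processing notes (GCOS version not given in the sources used here). Per the file's values, the 2% trimmed mean of each array is close to 500, so arrays were scaled by the authors and not normalized further. Samples were grouped by their titles, which also number the mice. Of 45101 probe sets, 64 controls were left out, 34945 carry 1 gene symbol in the platform annotation, 932 several and 9160 none, and only the first kind was used. Of these 34741 matched a RefSeq gene. Genes were kept when above the array median on at least 3 of 18 arrays, with the probe set of highest mean, which left 11569 of 18193. Differences were fitted on log2(signal + 16) with limma 3.58.1 (lmFit, and eBayes with trend) in R 4.3.3 over all 18 arrays, with group and mouse as terms. The mouse term was kept because bulge and non-bulge arrays with 1 number came from 1 mouse. Their deviations from the group means correlated at 0.319, 0.125 and 0.202 at PD25 and at 0.12, 0.107 and 0.462 at PD21. Divided and non-bulge arrays of different mice in 1 BioB-5 set correlated at 0.072 and 0.092 at PD25 and at 0.128 and 0.102 at PD21. These values cannot tell a mouse effect from one of the BioB-5 set. Adjusted p-values are Benjamini-Hochberg over all genes tested. The number of arrays, 3 per group, limits the precision.

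Genes were named by a rule: the 15 largest increases and decreases with separate arrays, up to 4 passing members of each list and role, a fixed set of markers, and up to 10 in each direction from the other comparisons. Another 63 genes were added after their values were seen. The members of the comparison and all gene lists were chosen with earlier results of these data known. The alternatives were other blocks, pseudocounts, filters, normalizations, probe set rules, weights, array sets and single arrays left out. The fit was tested on simulated data.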

Additional observations from a re-analysis of the deposited data

Results flagged for a closer look

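The difference between divided bulge and non-bulge was itself different at PD25 and PD21 for 451 genes by the limma test of that difference. The 10 genes with the greatest rise from PD21 to PD25 were Pm20d1 (5.47), the membrane protein gene Emp3 (4.55), Wnt5b (4.36), the receptor adaptor gene Grb14 (4.28), the mitotic kinase gene Nek6 (4.19), the protease inhibitor gene Pi15 (4.19), the lipid flippase gene Atp8a2 (4.13), Sorbs2 (3.97), Igdcc4 (3.93) and Bex1 (3.87). Bex1 did not pass at PD25 alone (1.54 ± 0.67, adjusted p = 0.16) and differed by -2.33 ± 0.67 at PD21. The 10 with the greatest fall were Casp4 (-4.29), 4930550C14Rik (-3.77), Slc22a4 (-3.64), Adgrg2 (-3.52), Ppp2r2c (-3.51), Tslp (-3.50), St3gal6 (-3.48), Wnt3 (-3.44), S1pr3 (-3.36) and Il22ra2 (-3.32). These values are differences of log2 differences, positive where divided bulge gained on non-bulge from PD21 to PD25. Each age has 3 mice of its own, and Cd34, the sorting marker, was among the genes that differed between the ages.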

How the results depend on the processing

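Divided against non-bulge gave 968 to 1638 genes in settings other than single arrays left out and the low BioB-5 set, which gave 578. It gave 930 to 1243 with single arrays left out, the lowest without the non-bulge array of mouse 1. Without the mouse as a block it gave 1026, all among the 1428, and 44 of the 247 named genes that passed lost the call. The test between ages gave 189 without the block, 140 without a variance trend, 684 with array weights, 233 and 1 within the low and high sets and 252 to 441 with single arrays left out. Divided against undivided gave 0 without the block, 21 with it as a random effect, 0 over the 9 PD25 arrays (936 at an unadjusted p below 0.05 in limma), 18 with a pseudocount of 64, 17 without a filter, 1 without a trend, 35 with weights, 4 with the BioB-5 set as block, 96 and 0 within the low and high sets (588 unadjusted in the high set) and 0 to 35 with single arrays left out: 0 without divided or undivided mouse 1, 29 and 22 without divided mice 2 and 3, 35 and 17 without undivided mice 2 and 3.

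Of the named genes 14 changed sign, 3 of them genes that had passed: Hk2, Nptx1 and Tap1. Quantile normalization gave 0.053 for Krt5 and 0.062 for Mki67. Centring on medians gave -0.0071 for Actb and -0.011 for Itga6. Array weights gave -0.074 for Itga6 and 0.058 for Mki67. Probe set means gave -0.16 for Top2a, 0.16 for Hopx, 0.050 for Tap1 and -0.023 for Trp63. The low set gave -0.063 for Hk2, -0.17 for Itga6, 0.33 for Man2a2, 0.029 for Nptx1, 1.15 for Ntn4, -0.77 for Top2a and 0.20 for Hopx. The high set gave -0.087 for Actb, 0.035 for Ccnd1 and 0.14 for Mki67. With single arrays left out, values ran from -0.085 to 0.19 for Actb, -0.26 to 0.056 for Ccnd1, -0.28 to 0.13 for Hopx, -0.14 to 0.11 for Itga6, -0.0040 to 0.56 for Ivl, -0.12 to 0.067 for Krt5, -0.48 to 0.081 for Man2a2, -0.18 to 0.24 for Mki67 and -0.40 to 0.53 for Top2a. The causes were not tested. Of 247 named genes that passed, 123 kept direction and call in all 22 alternatives for this comparison. Probe sets below array medians have sizes that depend on the value added.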

Other observations

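Several genes outside the lists, singled out after their values were seen, stood well apart between divided bulge and non-bulge cells at PD25. Lgals1, which encodes the lectin galectin 1, had signals of 698, 525 and 679 in non-bulge mice 1, 2 and 3 and of 25075, 9468 and 10952 in divided bulge (4.42 ± 0.26, limma adjusted p = 3.8e-10). Nt5e, the gene of the surface enzyme CD73, had 117, 229 and 238 and 5552, 3314 and 5774 (4.55 ± 0.30), though another of its probe sets gave 0.12. Shisa2, an antagonist of FGF and Wnt receptor maturation, had 810.2, 212 and 433 and 13938, 8096 and 10748 (4.61 ± 0.31). All 3 genes were high in every divided array. The imprinted genes Peg3 (3.11 ± 0.27) and Ndn (3.31 ± 0.52), both expressed from the paternal copy, were higher too, as was Tert, the telomerase subunit gene, with signals of 13.5, 29.0 and 20.6 and 118, 637 and 298 (3.05 ± 0.47).

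Among genes lower in divided bulge were Serpinb2, a protease inhibitor of epidermis (-3.11 ± 0.48), and the surface peptidase gene Dpp4, with signals of 1063, 1630.3 and 2973 in non-bulge cells and 164, 408 and 117 in divided bulge (-3.01 ± 0.53). Ahr, the aryl hydrocarbon receptor gene, had 2634, 1331 and 2198 and 454, 712 and 260.0 (-2.13 ± 0.31), and no array overlapped. The apoptosis, chromatin, hypoxia and cholesterol lists that follow are short, and their counts lie near the shares over all genes, 7.58% higher and 4.76% lower. Of 12 apoptosis genes, Bcl2, which blocks cell death, was higher (0.83 ± 0.17) and Pmaip1, which encodes the death promoter NOXA, was lower (-2.81 ± 0.50), and 2 were higher without the divided array of mouse 1 or the non-bulge array of mouse 2. Of 18 chromatin genes, the Polycomb gene Cbx6 (3.31 ± 0.27) and the remodeller gene Smarca2 (0.58 ± 0.17, adjusted p 0.26 without the mouse term) were higher and the chromatin organiser gene Satb1 was lower (-2.80 ± 0.38). Leaving out single arrays took Smarca2 to an adjusted p of up to 0.24, without the divided array of mouse 3, and it kept the call only without that of mouse 1. The count of lower chromatin genes was 2 without either array of mouse 2. Of 25 hypoxia and glycolysis genes, Pfkfb3 (1.26 ± 0.36, 0.077 without the mouse term) and Hk2 (1.25 ± 0.36, adjusted p 0.055 without the mouse term) were higher and Adm (-2.43 ± 0.55, 0.072 without it) and Egln3 (-1.92 ± 0.29) were lower, and the calls of Pfkfb3 and Hk2 were lost without the divided array of mouse 3 (adjusted p 0.21 and 0.30) or the non-bulge array of mouse 3, that of Hk2 without the divided and that of Pfkfb3 without the non-bulge array of mouse 2. Within the low BioB-5 set Hk2 differed by -0.063. Of 18 cholesterol synthesis genes 1 passed, Stard4 (0.97 ± 0.31, 0.060 without the mouse term), and it was lost without any single one of the arrays but the divided one of mouse 3 (up to 0.25, without the non-bulge array of mouse 2).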
